A study of Mus musculus with 6 samples.

Results

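The interferon response genes described here are Isg15, Usp18, Ifit1, Ifit2, Ifit3, Oasl2, Bst2, Irf7 and Irf9, chosen by symbol, and every probe whose gene name on the array is one of these 9 symbols was taken. They made up 11 of 56605 probes, with 2 probes each for Irf7 and Irf9 and 1 for each other gene. The tissue was the hypothalamus of male C57BL/6J DIO mice, which are mice of a common inbred strain that had become obese on chow with 60 kcal% fat. One group received GSK-J4 at 30 mg/kg and the other received vehicle only, so that strain, sex and diet were the same in both. The description of the series places the tissue at day 4 of exposure, whereas the study's methods describe a longer course, so the length of exposure behind these arrays is not settled. GSK-J4 is a small molecule that enters cells and inhibits the H3k27 demethylases Kdm6a and Kdm6b. There were 3 one-colour arrays in each group, each of 1 RNA sample, and the description speaks of independent experiments with different mice, without saying whether a replicate number stands for the same experiment in both groups. The comparison asks whether genes of the interferon response differed in the hypothalamus between mice given the inhibitor and mice given vehicle.

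Interferons are secreted proteins by which cells warn each other of viruses. Type I interferon binds the receptor of Ifnar1 and Ifnar2, the kinases Jak1 and Tyk2 then phosphorylate signal transducers such as Stat2, which joins Irf9 in a complex that binds interferon-stimulated response elements in the promoters of induced genes. Many induced genes have a low basal level in the brain, where microglia, endothelium and neurons can all respond.

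Values are log2 of the background-corrected signal after quantile normalization, so that a difference of 1 is a doubling of signal, and they can be compared between arrays for 1 probe but not between probes. Probes were tested if the scanner software flagged them as well above background throughout 1 group or both, and 34443 probes met this and are called kept. All 11 interferon response probes were kept, and 10 of them were well above background on all 6 arrays. A probe was called higher or lower in GSK-J4 when its adjusted p in limma, corrected by Benjamini-Hochberg over all kept probes, was at most 0.05.

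The arrays set limits on every value below. The vehicle arrays shared slide 1 and scan 1 and the GSK-J4 arrays shared slide 2 and scan 2, and for this reason a slide effect and a treatment effect cannot be told apart. The 75th percentile of signal before normalization was 787 to 916 on the vehicle arrays and 406 to 461 on the GSK-J4 arrays, and 62.8% to 63.6% of the probes were well above background in the first group against 57.7% to 58.7% in the second. Vehicle replicate 1 stood apart: the mean log2 signal of 9 kept choroid plexus markers was 12.75 on it and between 7.50 and 8.75 on the other arrays. Of 15 hypothalamic markers 10 were kept, whereas Avp, Pmch and Trh were well above background on 1 vehicle and 2 GSK-J4 arrays and Sim1 and Nkx2-1 on none, so the label of the tissue was borne out by its markers only in part.

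Isg15 and Ifit3 were called higher in GSK-J4 and no interferon response probe was called lower; at an unadjusted p of 0.05 or less in limma the counts were 3 and 1. Their 2 rises among 11 probes stand beside a background of 8.38% of all kept probes called higher and 8.4% called lower. Before normalization the signal of Isg15 was 431 to 522 on the vehicle arrays and 360 to 411 on the GSK-J4 arrays. That of Ifit3 was 564 to 637 and 338 to 425, so both rises are relative to the lower signal of the GSK-J4 arrays. The median difference of the 11 probes was 0.23, against 0.02 for all kept probes, but it was 0.43 without vehicle replicate 1, -0.10 without vehicle replicate 2 and -0.08 without GSK-J4 replicate 3, and it was 0.11 after scaling to the 75th percentile and 0.05 after normexp background correction. No probe was called when vehicle replicate 1 was left out. Groups did not overlap for 3 probes that were higher in GSK-J4 and 3 that were lower, where the shares of all kept probes, 24.5% and 21.1%, were similar. The lower probes were those of Irf9 and Ifit2, none of which was called.

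**Figure D1:**
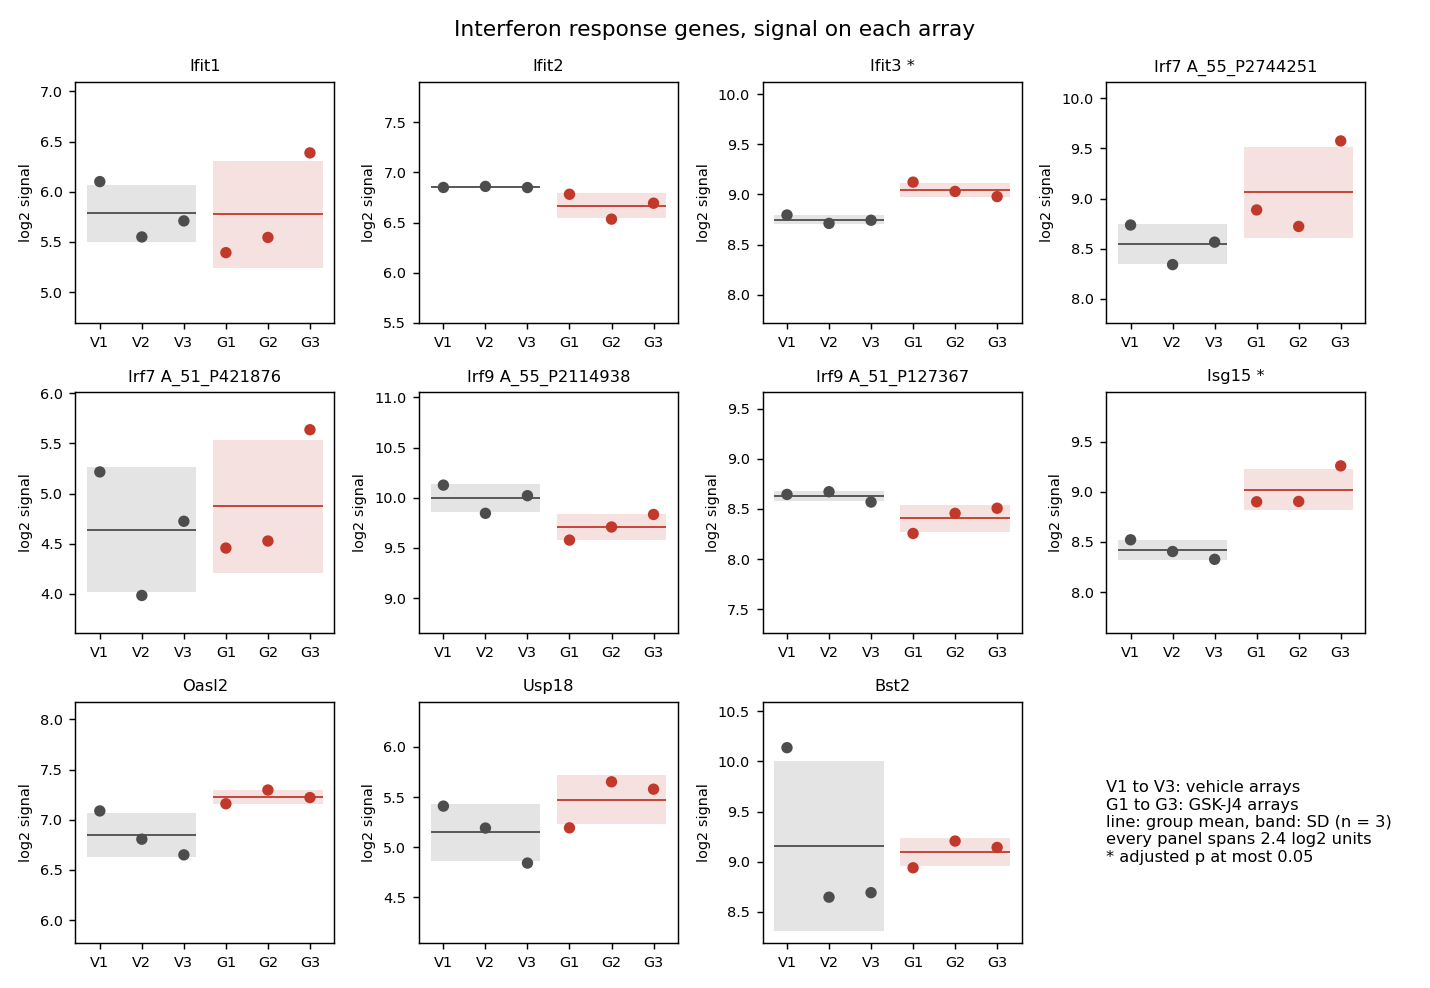
Log2 signal (vertical axes, each spanning 2.4 log2 units) of the 11 interferon response probes on the 3 vehicle arrays (V1 to V3, grey) and the 3 GSK-J4 arrays (G1 to G3, red). Lines are group means, bands are the SD (n = 3) and an asterisk marks an adjusted p of at most 0.05. Isg15 and Ifit3 separate with GSK-J4 above, Irf9 and Ifit2 separate with GSK-J4 below, and the vehicle group of Bst2 is spread by its replicate 1 at 10.14.

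Isg15 encodes a small ubiquitin-like protein that is attached to other proteins in interferon-treated cells. Its log2 signal was 8.52, 8.40 and 8.33 on vehicle replicates 1 to 3 and 8.90, 8.90 and 9.26 on GSK-J4 replicates 1 to 3. The groups did not overlap, and GSK-J4 replicate 3 was the highest of all 6 arrays. The difference was 0.60 ± 0.13 (SE, n = 3 per group; 95% confidence interval 0.29 to 0.91), which is 1.52-fold, with an adjusted p of 0.0323 in limma. The call was kept only without GSK-J4 replicate 3 (adjusted p = 0.0414 in limma) and was lost when any other single array was left out, with differences of 0.48 to 0.66 over the 6 fits. The Isg15 probe has a GC content of 55%, and with a trend on GC content removed its difference was 0.33 and its adjusted p 0.123 in limma.

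Usp18 encodes the protease that takes Isg15 off its targets and that also restrains the interferon receptor. Its log2 signal was 5.41, 5.19 and 4.84 on the vehicle arrays and 5.19, 5.65 and 5.58 on the GSK-J4 arrays, in the order of their replicate numbers. The groups overlapped, since GSK-J4 replicate 1 lay between the vehicle arrays. The difference of 0.33 (SE 0.19, 95% confidence interval -0.14 to 0.80) did not pass the test, with an adjusted p of 0.267 in limma (n = 3 per group). It was 0.20 after scaling to the 75th percentile, 0.05 after normexp background correction, and 0.18 to 0.47 when single arrays were left out. Thus within the Isg15 pathway the modifier passed the test and its protease did not, and the difference between them was not tested.

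The Ifit genes lie together on chromosome 19 and encode tetratricopeptide proteins that bind foreign RNA and hold back its translation. Ifit3 had a log2 signal of 8.80, 8.71 and 8.74 on the vehicle arrays and 9.12, 9.03 and 8.98 on the GSK-J4 arrays. The groups did not overlap and each spread by less than the gap between their means. The difference was 0.29 ± 0.07 (SE, n = 3 per group; 95% confidence interval 0.11 to 0.48), which is 1.23-fold, with an adjusted p of 0.0485 in limma. This call was lost when any single array was left out (differences 0.25 to 0.33, adjusted p 0.0607 to 0.154). The near-identical neighbour Ifit3b, whose RNA could bind the same probe, differed by 0.31 on its own probe (adjusted p = 0.097 in limma), so which of these RNAs the Ifit3 value measures is uncertain.

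Ifit2 had a log2 signal of 6.85, 6.86 and 6.85 on the vehicle arrays and 6.78, 6.53 and 6.69 on the GSK-J4 arrays. All 3 GSK-J4 arrays lay below the vehicle arrays, whose SD was only 0.0064. The difference was -0.18 (SE 0.09, 95% confidence interval -0.40 to 0.03), and its adjusted p was 0.184 in limma (n = 3 per group). With quantile normalization replaced by a scaling to the 75th percentile the difference was -0.32, and there Ifit2 was called lower (adjusted p = 0.0362 in limma).

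Ifit1 had a log2 signal of 6.10, 5.55 and 5.71 on the vehicle arrays and 5.39, 5.54 and 6.39 on the GSK-J4 arrays. GSK-J4 replicates 1 and 2 lay below every vehicle array, the latter only just, and GSK-J4 replicate 3 above them all. The difference was -0.01 with a 95% confidence interval of -0.74 to 0.72 and an adjusted p of 0.981 in limma (n = 3 per group). The 3 neighbouring Ifit genes thus had 1 probe called higher and 2 probes that were not called, with negative differences.

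Oasl2 encodes a protein that joins an oligoadenylate synthetase-like part to ubiquitin-like domains. It had a log2 signal of 7.09, 6.81 and 6.65 on the vehicle arrays and 7.16, 7.30 and 7.22 on the GSK-J4 arrays. All 3 GSK-J4 arrays lay above the vehicle arrays, although GSK-J4 replicate 1 and vehicle replicate 1 were close. The difference was 0.38 (SE 0.13, 95% confidence interval 0.06 to 0.69), with an adjusted p of 0.092 in limma (n = 3 per group). Without vehicle replicate 1 it was 0.50, and the adjusted p was 0.0702 in limma, whereas scaling to the 75th percentile gave 0.24.

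Bst2, also called tetherin, is a membrane protein that holds budding virus particles on the cell surface. Its log2 signal was 10.14, 8.65 and 8.69 on the vehicle arrays and 8.94, 9.21 and 9.14 on the GSK-J4 arrays. Vehicle replicate 1, the array with the high choroid plexus markers, was 1.47 above the mean of the other vehicle arrays, and only 0.569% of the kept probes stood as far above on that array. With all 6 arrays the difference was -0.06 (SE 0.42, adjusted p = 0.926 in limma, n = 3 per group). Without vehicle replicate 1 the direction turned: the GSK-J4 arrays lay above the other 2 vehicle arrays, the difference was 0.43 (SE 0.11), and the adjusted p was 0.095 in limma.

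**Figure D2:**
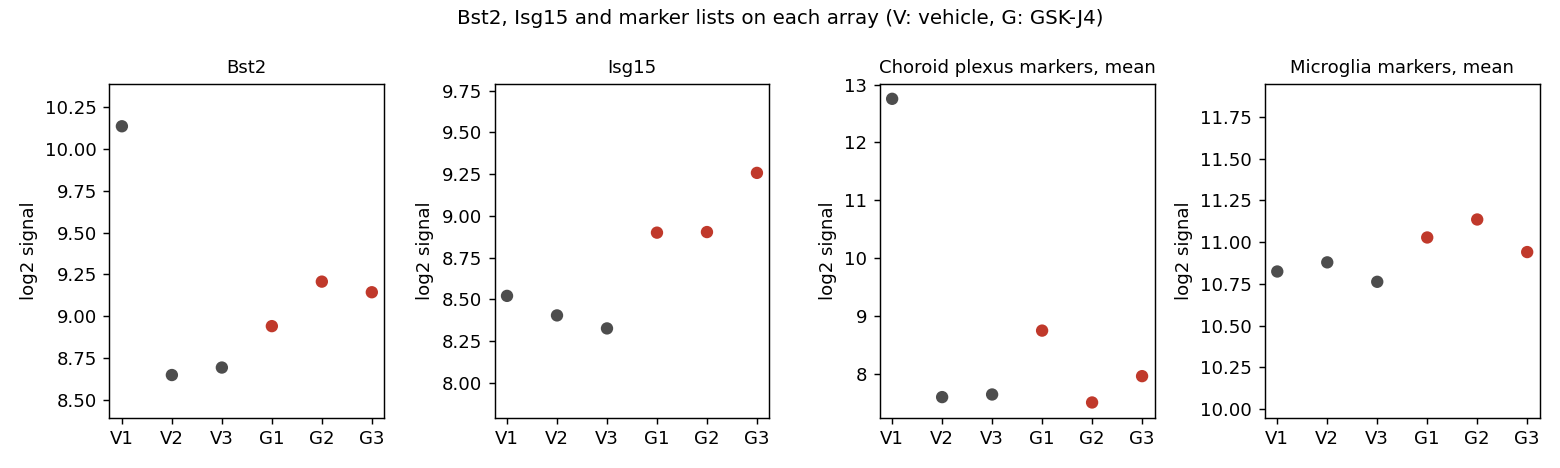
Log2 signal (vertical axes) of Bst2, of Isg15, of the mean over 9 choroid plexus markers and of the mean over 16 microglia markers on each vehicle (V, grey) and GSK-J4 (G, red) array; the vertical scale of the choroid plexus panel is wider than that of the others. Vehicle replicate 1 is the highest array for Bst2 (10.14) and for the choroid plexus markers (12.75) but not for Isg15 (8.52), and the microglia mean lies between 10.76 and 10.88 in vehicle and between 10.94 and 11.14 in GSK-J4.

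Irf7 is the transcription factor that drives the later wave of type I interferon, and its own gene is induced by interferon. It is measured by 2 probes of the array design, shown because they differed in detection; both are on the minus strand of mm9, the first at chr7:148449104-148449163 and the second over chr7:148450664-148451014, a span longer than the probe itself:
A_55_P2744251: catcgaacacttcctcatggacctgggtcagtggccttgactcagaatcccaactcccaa
A_51_P421876: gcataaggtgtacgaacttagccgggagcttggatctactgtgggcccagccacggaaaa
On the first probe the log2 signal was 8.74, 8.34 and 8.57 in vehicle and 8.89, 8.72 and 9.57 in GSK-J4. The groups overlapped by 1 array each, and GSK-J4 replicate 3 was far above the rest. The difference was 0.51 (SE 0.24, 95% confidence interval -0.09 to 1.11), the adjusted p was 0.187 in limma (n = 3 per group), and without GSK-J4 replicate 3 the difference was 0.26. After normexp background correction it was 0.49 and was called higher (adjusted p = 0.049 in limma). The second probe was well above background on the 3 vehicle arrays and on 1 of the 3 GSK-J4 arrays. Its log2 signal was 5.22, 3.98 and 4.72 in vehicle and 4.46, 4.53 and 5.64 in GSK-J4. Its difference was 0.23 (SE 0.44, adjusted p = 0.728 in limma, n = 3 per group), and GSK-J4 replicate 3 was again the highest array.

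Irf9 is the subunit by which the complex with Stat2 recognises the response element. The probe at chr14:56228806-56228865 of mm9 had a log2 signal of 10.13, 9.84 and 10.02 in vehicle and 9.58, 9.71 and 9.83 in GSK-J4. The probe at chr14:56228256-56228315 had a log2 signal of 8.64, 8.67 and 8.57 in vehicle and 8.25, 8.46 and 8.51 in GSK-J4. On both probes every GSK-J4 array lay below every vehicle array. The differences were -0.29 (SE 0.11, adjusted p = 0.119) and -0.22 (SE 0.09, adjusted p = 0.145) in limma (n = 3 per group), and neither passed the test. With a trend on GC content removed the first was -0.12. The probes of Irf9 therefore had the same sign, opposite to that of Isg15, Ifit3 and Oasl2.

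**Figure D3:**
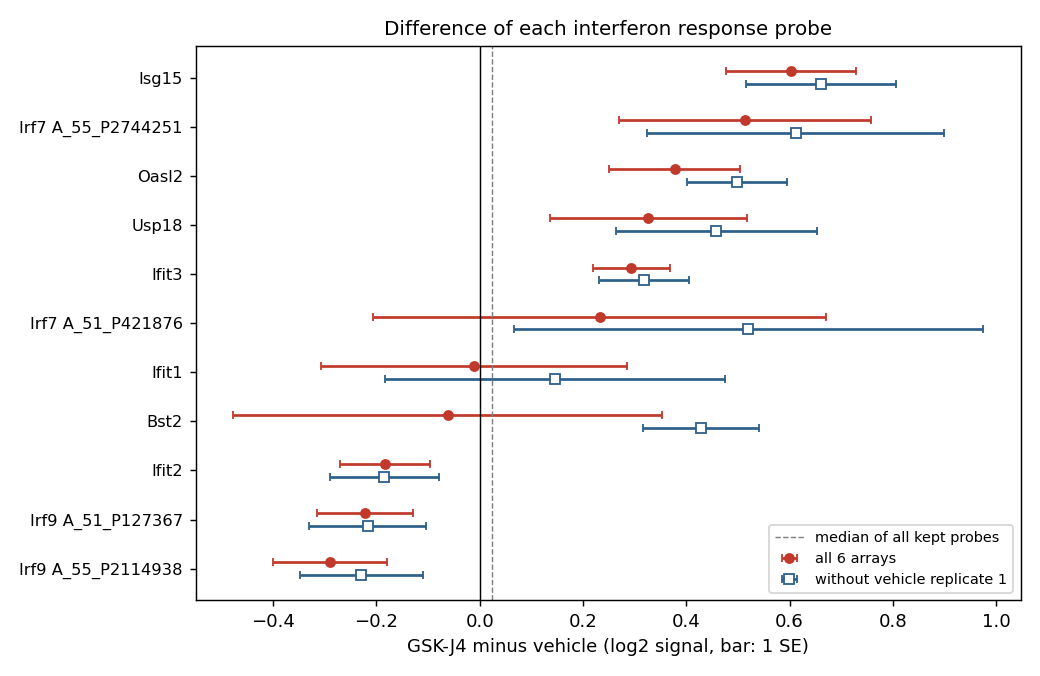
GSK-J4 minus vehicle difference in log2 signal (horizontal axis) of the 11 interferon response probes with all 6 arrays (red circles) and without vehicle replicate 1 (blue squares), bars showing 1 SE; the dashed line is the median of all kept probes, 0.02. Bst2 moves from -0.06 to 0.43 when that array is left out, whereas Isg15 moves from 0.60 to 0.66 and the probes of Irf9 and Ifit2 stay below 0.

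For each single value an exact permutation test over the 20 orders of 3 arrays against 3 (two-sided) gave 0.1, the smallest p this design allows, for Isg15, Ifit3, Oasl2, Ifit2 and both probes of Irf9, and 0.2 or more for the other 5 probes. Without vehicle replicate 1 the groups did not overlap for 6 probes with GSK-J4 above and 3 with GSK-J4 below, beside 28.5% and 25.4% of all kept probes. No interferon response probe was then called in limma (4 were higher and 0 lower at an unadjusted p of 0.05 or less), where 0.00573% of all kept probes were called higher and 0.0258% lower. The thresholds of the study's methods use p-values that are not adjusted (p of 0.05 or less, with at least a 1.5-fold change). With limma p-values at these thresholds only Isg15 passed among the 11 probes, beside 4.8% of all kept probes higher and 7.85% lower. With the methods' t-test without equal variances at these thresholds, 1142 of 34443 kept probes were higher and 1794 lower.

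Single arrays stood out on several of these genes. Vehicle replicate 1 was the highest vehicle array for 9 of the 11 probes, where it was the highest for 33.3% of all kept probes, and vehicle replicate 3 was the highest for none. GSK-J4 replicate 3 was the highest GSK-J4 array for 6 of the 11 probes, against 41.4% of all kept probes. Its excess over the mean of the other 2 GSK-J4 arrays was 1.14 and 0.77 on the probes of Irf7, 0.92 on Ifit1 and 0.36 on Isg15. It was -0.10 on Ifit3 and -0.01 on Oasl2, so the high level on this array was not shared by all induced genes.

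The genes whose level was most like the mean of the 9 genes over the 6 arrays, each gene centred on its own mean and all well above background on all 6 arrays, were Tnni3, Polg and Ftsj3. Their Pearson correlations with that mean were 0.986, 0.983 and 0.982 over 6 arrays that share their slides with their groups, and 191 of 19987 genes searched were above 0.9. None of the 3 differed between the groups in limma, with differences of 0.40 for Tnni3 (adjusted p = 0.247), 0.08 for Polg (adjusted p = 0.504) and 0.16 for Ftsj3 (adjusted p = 0.381). Tnni3 encodes a troponin of heart muscle and Polg the polymerase of mitochondrial DNA.

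The promoters of the 9 genes were searched for the core letters of the interferon-stimulated response element, GAAANNGAAA, on both strands in the 250 bases before and 50 after each start in RefSeq (GRCm38.p6). A match was found in 4 of the 8 genes with a promoter, Isg15, Ifit3, Bst2 and Ifit1, and not in the windows of Ifit2, Oasl2, Irf7 and Irf9. Among all 27025 genes with a promoter 3.99% have a match, as do 3.44% of all 32851 promoters. The 4 stretches are shown because they set the genes with the called rises beside genes that share their letters, with the matches in capitals:
Isg15: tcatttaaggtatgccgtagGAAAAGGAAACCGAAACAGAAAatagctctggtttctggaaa
Ifit3: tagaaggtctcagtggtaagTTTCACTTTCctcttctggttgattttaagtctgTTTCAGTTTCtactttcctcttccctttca
Bst2: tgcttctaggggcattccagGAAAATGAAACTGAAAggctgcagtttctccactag
Ifit1: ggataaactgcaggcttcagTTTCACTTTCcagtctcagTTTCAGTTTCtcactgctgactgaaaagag
They lie at chr4:156200855-156200916 (minus strand), chr19:34583353-34583436 (plus strand), chr8:71537567-71537622 (minus strand) and chr19:34640765-34640833 (plus strand), in this order. Isg15 has 3 overlapping matches that begin 78 to 66 bases before the start, Bst2 has 2 overlapping matches that begin 130 and 124 bases before it, and Ifit3 and Ifit1 have 2 separate matches each. With all 6 arrays these 4 genes had differences of 0.60, 0.29, -0.06 and -0.01, and without vehicle replicate 1 they had 0.66, 0.32, 0.43 and 0.15, in the same order. Only the first 2 of these were called with all arrays and none without that array. Among 71 other induced genes with a promoter 32 had a match, and the median differences of those kept were 0.16 with a match and 0.11 without. Called higher were 1 of 23 with a match and 6 of 34 without, beside 8.59% of all genes.

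The rest of the pathway was read from 6 lists of genes by role, with the kept probe of highest mean for each gene. Of 167 such genes on the array 137 were kept, and 15 were called higher and 6 lower, which is to be read beside 8.59% of all genes called higher and 7.56% called lower. Their median difference was 0.12 against 0.04 for all genes. No pathway gene was called in either direction when any single vehicle array was left out, and 7 to 9 were called higher when a GSK-J4 array was left out. The same holds for the arrays as a whole: over all kept probes 2 to 5 were called higher and 9 to 23 lower without a vehicle array, and 979 to 2122 were called higher without a GSK-J4 array. At an unadjusted p of 0.05 or less in limma the counts were 34 higher and 11 lower with all arrays and 32 and 9 without vehicle replicate 1. Of the called genes named below, Batf2, Tmem173, Ifitm1 and Socs1 were called in none of the 6 fits that leave out an array, Ifnar1, Tbk1, Trim25 and Sp110 in 1, Tlr3 in 2, and Psmb8 and Gbp5 in 3. With a trend on GC content removed, Batf2, Tmem173, Ifitm1 and Psmb8 were no longer called, and the difference of Psmb8 was 0.42.

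Most genes of the interferons themselves did not pass the filter on background. Of 14 ligand genes on the array 3 were kept, Ifna1, Ifnl3 and Ifnab, and none was called. Ifna1 and Ifnl3 were well above background on all 6 arrays, with log2 signals of 5.02 to 5.65 and 7.12 to 7.84. Ifnb1, the first interferon made by most cells, was dim on all 6 arrays, with no array well above background. Ifnab was well above background on the 3 vehicle arrays and on no GSK-J4 array.

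Among the receptors and kinases 8 of 9 genes were kept, 0 were called higher and 1 lower, beside 8.59% and 7.56% of all genes. Ifnar1, which forms the type I receptor with Ifnar2, had a log2 signal of 12.53, 12.42 and 12.62 in vehicle and 11.81, 12.14 and 11.84 in GSK-J4 on the probe used. The groups did not overlap, with a difference of -0.59 ± 0.12 (SE, n = 3 per group) and an adjusted p of 0.0295 in limma. The other probes of Ifnar1 disagreed, with differences of -0.79 (adjusted p = 0.0313), 0.11 (adjusted p = 0.345) and 0.40 (adjusted p = 0.155) in limma, so the direction of the gene as a whole is not settled. Ifnar2 differed by -0.09 on the probe used (adjusted p = 0.661), Ifngr1 by 0.08 (adjusted p = 0.707), Jak1 by -0.06 (adjusted p = 0.574) and Tyk2 by -0.57 (adjusted p = 0.0539), all in limma. Tyk2 is the kinase bound to Ifnar1, and its GSK-J4 arrays lay below its vehicle arrays; with a trend on GC content removed it was called lower at -0.64.

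Of 12 kept transcription factors of the pathway 1 was called higher and 0 lower, beside 8.59% and 7.56% of all genes. Batf2, an interferon-induced partner of Irf1, had a log2 signal of 4.48, 4.29 and 5.19 in vehicle and 5.70, 5.49 and 5.59 in GSK-J4. The groups did not overlap, and the difference of 0.94 ± 0.24 (SE, n = 3 per group; 1.91-fold, adjusted p = 0.0497 in limma) was just past the test. After normexp background correction it was 0.22 and not called, and when single arrays were left out it was 0.76 to 1.20. Stat2, the signal transducer that binds Irf9, was not called, with a difference of 0.01 (adjusted p = 0.979 in limma). Irf1 differed by 0.14 (adjusted p = 0.629) and Irf3, the factor activated by viral sensors, by 0.14 (adjusted p = 0.401) in limma.

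Among 19 kept sensors and adaptors 3 were called higher and 2 lower, beside 8.59% and 7.56% of all genes. Over all 34 kept probes of these genes 4 were called higher and 3 lower, beside 8.38% and 8.4% of all kept probes. Tmem173, the adaptor STING of the cytosolic DNA sensor, rose by 0.78 (SE 0.20, adjusted p = 0.0495 in limma). Tlr3, the endosomal receptor of double-stranded RNA, rose by 0.71 on the probe used (SE 0.12, adjusted p = 0.0221 in limma), but its other kept probe fell by 0.81 (adjusted p = 0.0197 in limma), so these probes were opposed with both past the test. The first was 0.33 after normexp background correction and was still called. The kinase Tbk1, which phosphorylates Irf3, fell by 0.58 (SE 0.10, adjusted p = 0.0252 in limma), and the ubiquitin ligase Trim25, which activates the RNA sensor RIG-I, fell by 0.49 (SE 0.09, adjusted p = 0.0267 in limma), or -0.32 after scaling to the 75th percentile.

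Among 77 kept other induced genes 7 were called higher and 3 lower, beside 8.59% and 7.56% of all genes, and their median difference was 0.15. Over all 109 kept probes of these genes 9 were called higher and 5 lower, beside 8.38% and 8.4% of all kept probes. Ifitm1, a membrane protein that blocks virus entry, rose by 0.73 (SE 0.15, adjusted p = 0.033 in limma), and Psmb8, a catalytic subunit of the immunoproteasome, rose by 0.69 (SE 0.11, adjusted p = 0.0194 in limma). Gbp5, an interferon-induced GTPase, fell by 0.65 on the probe used (SE 0.09, adjusted p = 0.018 in limma) and had 0.34 on its other probe (adjusted p = 0.277 in limma). Sp110, a nuclear body protein, fell by 0.45 (SE 0.09, adjusted p = 0.0301 in limma), with 0.23 and -0.13 on its other kept probes, which were not called. After scaling to the 75th percentile the difference of Sp110 was -0.14 and was not called.

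Several classical induced genes were dim or did not pass the test. Mx1 was well above background on none of the arrays with either of its probes, and Cxcl10 was well above background on at most 1 array of each group. Oas1a, an oligoadenylate synthetase, had a log2 signal of 6.38, 6.37 and 6.47 in vehicle and 6.61, 6.93 and 7.05 in GSK-J4. Its groups did not overlap, and the difference of 0.46 had an adjusted p of 0.061 in limma (n = 3 per group). The differences of Rsad2 (0.50, adjusted p = 0.248), Ifitm3 (0.34, adjusted p = 0.18), Ifi27 (-0.25, adjusted p = 0.506), Eif2ak2 (-0.11, adjusted p = 0.869) and B2m (-0.06, adjusted p = 0.62) did not pass the test in limma. Of these, Ifi27 shared the high vehicle replicate 1 of Bst2, with 14.30 there and 13.40 and 13.54 on the other vehicle arrays.

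Of 18 kept negative regulators 4 were called higher and 0 lower, beside 8.59% and 7.56% of all genes, with a median difference of 0.18. Over all 33 kept probes of these genes 5 were called higher and 2 lower, beside 8.38% and 8.4% of all kept probes. Socs1, which binds and blocks the Jak kinases, had a log2 signal of 6.17, 6.25 and 6.25 in vehicle and 6.56, 6.54 and 6.50 in GSK-J4. The groups were tight and did not overlap, and the difference was 0.31 ± 0.07 (SE, n = 3 per group; adjusted p = 0.0359 in limma). It was 0.17 and not called after scaling to the 75th percentile and likewise after normexp background correction. Usp18, described above, belongs to the same function and was not called.

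**Figure D4:**
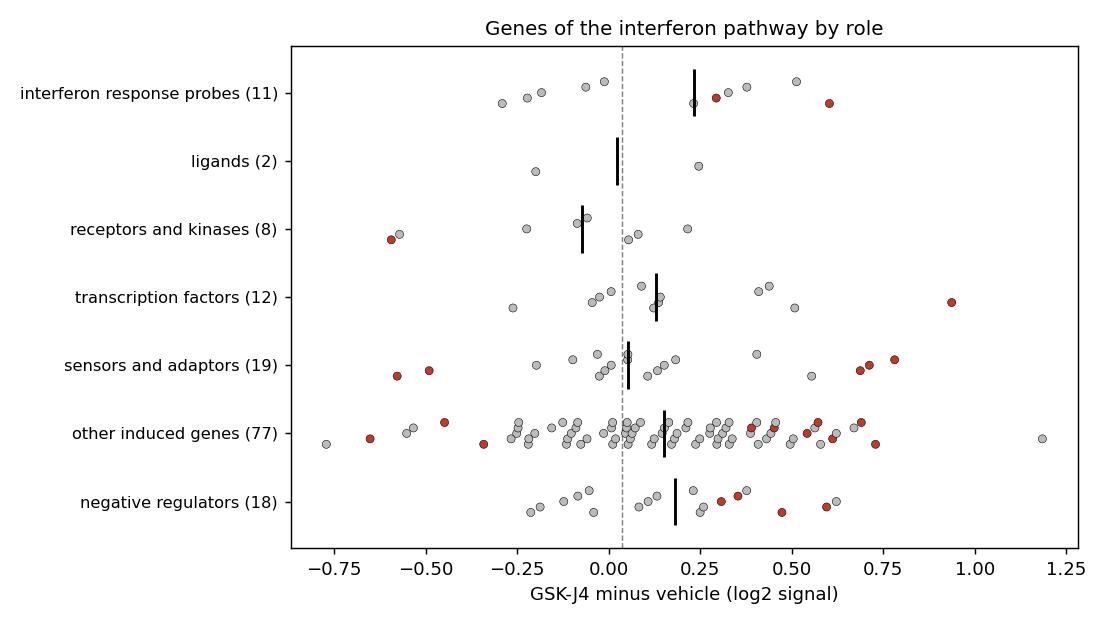
GSK-J4 minus vehicle difference in log2 signal (horizontal axis) of the 11 interferon response probes and of the kept genes of 6 pathway lists (1 probe a gene, number of points in brackets; Ifnab, which was not well above background on any GSK-J4 array, is not drawn). Red points have an adjusted p of at most 0.05, black bars are the medians of the drawn points and the dashed line is the median of all genes, 0.04. Genes called higher and lower were 0 and 1 for receptors and kinases, 1 and 0 for transcription factors and 3 and 2 for sensors and adaptors. They were 7 and 3 for other induced genes and 4 and 0 for negative regulators, beside 8.59% and 7.56% of all genes.

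Markers of cell types that respond to interferon were read on the same arrays. Of 16 microglia markers 6 were called higher and 0 lower, 11 of 16 had GSK-J4 arrays all above the vehicle arrays (25.5% of all genes), and the median difference was 0.30. C1qa, C1qb and C1qc, which encode complement C1q, rose by 0.41, 0.46 and 0.47, Tyrobp by 0.42, Fcrls by 0.51 and Sall1 by 0.30. Among markers of resting microglia that did not pass the test, Cx3cr1 had 0.30, P2ry13 0.53, P2ry12 -0.01 and Tmem119 0.03. Tmem119 was split within its group, with 10.74 and 10.68 on GSK-J4 replicates 1 and 2 against 10.19, 10.12 and 10.02 in vehicle, and with GSK-J4 replicate 3 below every vehicle array. The log2 of the summed signal of the list was 15.84 to 15.96 in vehicle and 15.70 to 16.04 in GSK-J4. Without vehicle replicate 1 no microglia marker was called in limma (9 higher and 1 lower at an unadjusted p of 0.05 or less) and the median was 0.33. Of 10 endothelial, 10 blood and leukocyte, 8 astrocyte and 8 oligodendrocyte markers kept, none was called in either direction in limma, and at an unadjusted p of 0.05 or less 1 was higher and 1 lower among the astrocyte markers, and the same among the oligodendrocyte markers. Of 8 neuron markers 1 was called lower, Map2 (-0.33, adjusted p = 0.0433 in limma). Of the 10 kept hypothalamic markers 2 were called higher, Npy (0.42, adjusted p = 0.0269 in limma) and Pomc (0.86, adjusted p = 0.0221 in limma). All these counts use 1 probe a gene. Over every kept probe of the neuron markers, 6 of 22 were called lower and 1 higher, beside 8.4% and 8.38% of all kept probes. Likewise 2 of 18 astrocyte probes were called higher and 1 lower, and 1 of 14 endothelial probes was higher and 0 lower. None of 17 oligodendrocyte and 14 blood and leukocyte probes was called. The hypothalamic list had a median difference of 0.42, and 6 of its 10 genes had all GSK-J4 arrays above the vehicle arrays. The part of microglia or neurons in the values of Isg15 and Ifit3 was not tested, and in whole tissue a change in the number of cells and a change in RNA per cell cannot be told apart.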

How the data were processed

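Hypothalamic RNA was hybridized to 6 Agilent mouse arrays. The authors deposited the background-corrected intensity of each spot from Feature Extraction (10.7.1.1 in the submitters' processing notes) and a table of log2 values that their methods describe as quantile normalized. Probe coordinates are on mm9; exon and UTR annotation of that build was not used here. In R 4.3.3 with limma 3.58.1, control spots and outlier spots were left out, spots of a probe were averaged on the log2 scale, and arrays were quantile normalized. The comparison used lmFit and eBayes (two-sided, no covariate), with Benjamini-Hochberg adjustment of p over 34443 kept probes. The test was tried on simulated data with independent noise for each probe, no slide effect and no outlying array. That trial therefore does not bear on the limits of the arrays given above. A difference is that of the group means of log2 intensity, and a fold change is this difference without its sign, taken back from the log2 scale. The number of arrays limits the precision.

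The 9 genes and all lists were chosen with earlier results of these data known. Named were every member probe, the 5 largest rises and 5 largest falls among called pathway genes, 19 genes of the pathway regardless of value (1 of them is not reported here), and the 3 genes most like the mean of the members. Alternatives were scaling to the 75th percentile, normexp (offset 50), the deposited log2 table, no filter and a filter on all 6 arrays, the methods' t-test and thresholds, a replicate block, a GC correction (lowess span 30%), 1 probe a gene, and leaving out each array.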

Additional observations from a re-analysis of the deposited data

How the results depend on the processing

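Of the values of the 11 interferon response probes under alternatives other than leaving out an array, 104 kept their direction and their side of the threshold, 9 were no longer called, 2 were newly called and 3 turned in direction. Much of this agreement was fixed in advance, since several alternatives reused the same normalized values and most of the probes were not called to begin with. All 9 losses were on the called probes: Isg15 stayed called in 7 of 11 alternatives and Ifit3 in 6 of 11. The number of interferon response probes called higher was 2 with all 6 arrays. It was 0 without a filter on dim probes, 0 with the methods' t-test after Benjamini-Hochberg, 1 at the methods' thresholds with limma or with their t-test, and 1 with a trend on GC content removed, and 1 was called lower after scaling to the 75th percentile, while normexp gave 3 called higher. Leaving out an array gave 0 to 1 called higher and 0 lower. Pathway genes called higher and lower were 15 and 6 with all arrays, 0 and 0 with the methods' t-test after Benjamini-Hochberg, and 7 and 2 with that t-test at the methods' thresholds. Scaling to the 75th percentile gave 20 higher, the most of any alternative, and a filter on all 6 arrays gave 7 lower. Limma at the methods' thresholds called 2 lower, removal of the GC trend left 7 called higher, and leaving out an array gave 0 to 9 higher and 0 to 4 lower. Over all kept probes the methods' t-test after Benjamini-Hochberg called 34 higher and 25 lower; before adjustment 2 interferon response probes were higher and 0 lower at a p of 0.05 or less.

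The values did not show a pairing of the arrays by replicate number, though so few arrays cannot settle whether there was one. The correlations of deviations from the group means were 0.01, 0.03 and 0.08 for equal numbers and -0.10 to 0.09 for unequal numbers. With the replicate block 0 interferon response probes and 0 pathway genes were called in either direction, as were 0 of all kept probes, and Isg15 had an adjusted p of 0.0988 in limma; before adjustment 2 interferon response probes and 29 pathway genes were higher at a p of 0.05 or less, and 0 and 9 were lower.

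Directions that turned belong to values that did not pass the test. Scaling to the 75th percentile gave 0.16 for Jak1, 0.046 for Ifi27 and 0.12 for B2m. Normexp gave 0.0080 for Ifit1 and 0.0016 for Jak1. Removal of the GC trend gave 0.16 for Ifit1, -0.037 for the second probe of Irf7, 0.084 for Ifnar2, 0.11 for Jak1, -0.093 for Irf3, 0.058 for Eif2ak2 and 0.21 for B2m. When single arrays were left out, the ranges that crossed 0 were -0.32 to 0.18 for Ifit1, -0.15 to 0.52 for the second probe of Irf7, -0.32 to 0.43 for Bst2, -0.16 to 0.049 for Ifnar2, -0.091 to 0.14 for Stat2, -0.42 to 0.032 for Ifi27 and -0.40 to 0.38 for Eif2ak2. The cause of these changes was not tested. Signal over background limits the dim probes, and the second probe of Irf7 is the only one of the 11 not well above background on all 6 arrays. Its signal before normalization was 16 to 52. Those of Usp18, 26 to 60, and of Ifit1, 30 to 96, were also low, so background limits these probes too.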
